A study of Mus musculus with 4 samples.

Results

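Transcripts of 8 genes of the cell-cell adherens junction were followed in mouse epiblast stem cells after knockdown of Tox4, a gene for an HMG-box protein of chromatin. They were 3 classical cadherins (Cdh1, Cdh2 and Cdh3), 4 catenins (Ctnna1, Ctnnb1, Ctnnd1 and Jup) and the epithelial adhesion gene Epcam, taken by symbol from the table of the series, which held 15429 genes. Each symbol had 1 row, and all 8 genes were abundant enough to be tested. Polyadenylated RNA came from 1 line, OE7, isolated from post-implantation mouse embryos and carrying the Oct4-Gip transgene, a green fluorescent reporter of Oct4, in every library. Cells at passages 21 to 25 grew on fibronectin in N2B27 medium with Activin A at 20 ng/ml and Fgf2 at 12 ng/ml. They were given 1000 ng of esiRNA (a pool of short interfering RNAs cut from a long double strand) and 2 µl of lipofectamine by reverse transfection. The control group received esiRNA against Luc (n = 2 libraries) and the knockdown group esiRNA against Tox4 (n = 2 libraries). The time between transfection and harvest, and whether the libraries of a group were separate cultures, are not given in the labels, so the p-values reflect no more than how far these libraries differed from one another, and that variation may be technical.

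Classical cadherins are single-pass membrane proteins whose outer domains bind the same cadherin on a neighbouring cell in the presence of calcium. Their cytoplasmic tails hold p120-catenin (Ctnnd1) next to the membrane and beta-catenin (Ctnnb1) or plakoglobin (Jup) further along, and alpha-catenin (Ctnna1) links this complex to actin. Beta-catenin also has a separate pool that acts with TCF factors in Wnt signalling. Epiblast stem cells form an epithelial layer held by E-cadherin, and a change from E-cadherin to N-cadherin is a textbook feature of gastrulation and of neural plate formation.

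The values are FPKM, fragments scaled to gene length and to library size, so levels can be set side by side between genes. Whole reads worked back from them came to between 12778076 and 19008860 per library. The targeted gene Tox4 had 16.7 and 17.5 FPKM in the controls and 8.65 and 8.89 FPKM after knockdown, a log2 fold change of -0.89 (limma adjusted p = 0.00228). Markers of epiblast stem cells were present in every library, all 7 of 7 listed, at a summed 1210 to 1245 FPKM. Of these, Sox2 was called higher (76.3 to 90.4 FPKM, log2 fold change 0.24, limma adjusted p = 0.0355) and 6 were not called. The 7 of 8 fibroblast markers in the table summed to 20.8 and 21.0 FPKM with Luc esiRNA and to 19.1 and 20.0 FPKM with Tox4 esiRNA. Of 5 neuroectoderm markers, all in the table, 3 of 4 tested were higher, and the sum was 76.5 to 77.7 FPKM with Luc esiRNA and 91.2 FPKM in each Tox4 library. Of 4 mesendoderm markers 3 were in the table, 1 was lower (T), and the sum was 21.5 to 22.8 and 13.3 to 14.3 FPKM. The part of these marker shifts in the results that follow was not tested, and in bulk RNA fewer cells of a type cannot be told apart from less RNA per cell. No marker of naive pluripotent cells, trophoblast or primitive endoderm that was in the table exceeded 2 FPKM in any library.

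Knockdown of Tox4 went with lower Cdh1 and Epcam and higher Ctnnb1, whereas the other 5 genes did not pass the test. The test was limma on log2(FPKM + 1), with Benjamini-Hochberg adjustment over 12403 genes and a threshold of 0.05. Among all tested genes 4.51% passed, 1.89% as higher and 2.62% as lower, against 3 of these 8 genes, 1 higher and 2 lower. The count describes 8 chosen genes and is no test of them as a set. The median log2 fold change was -0.07 over the 8 genes and -0.0034 over all tested genes. The Luc and Tox4 values did not overlap for 6 of the 8 genes, against 52.0% of all tested genes.

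**Figure D1:**
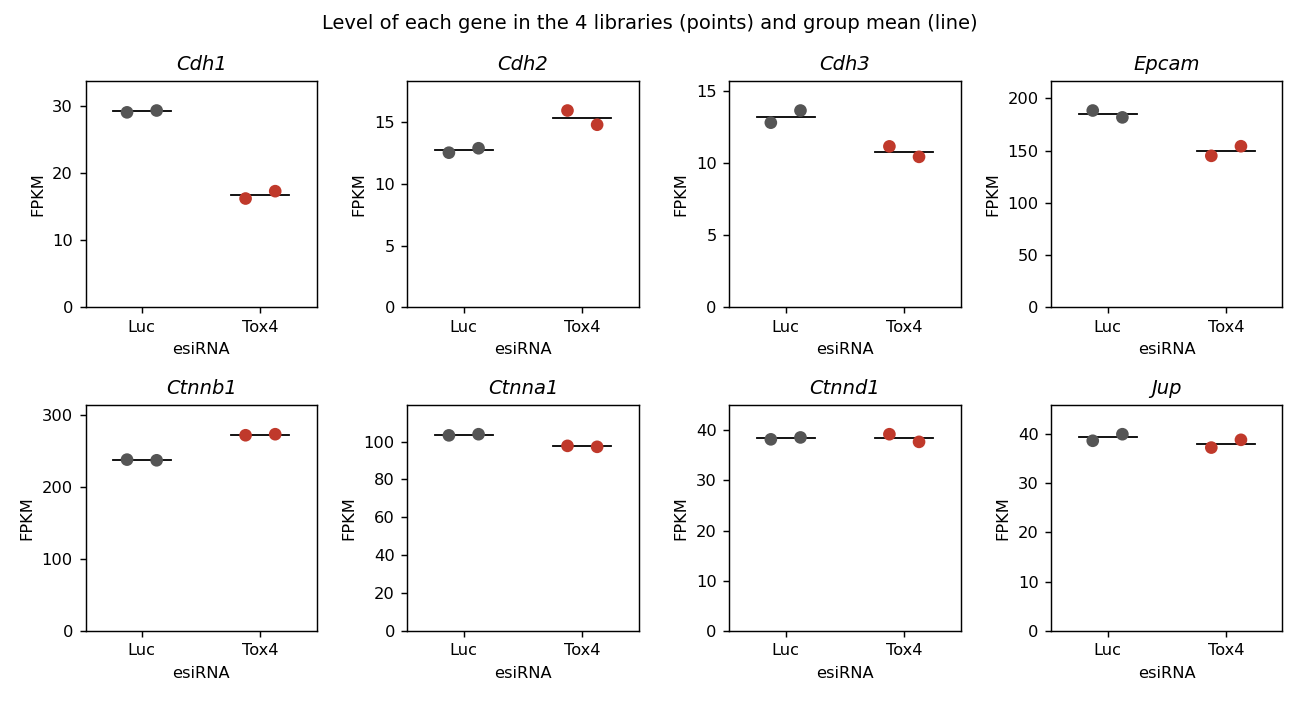
FPKM (vertical axes, from 0, a scale of its own for each gene) in the 2 Luc libraries (grey) and the 2 Tox4 libraries (red), with lines for the group means. Cdh1 dropped from 29.2 to 16.7 FPKM on average, while the libraries of Ctnnd1 and of Jup overlapped between the groups.

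In the control cells Ctnnb1 had the highest level of the 8 genes, 237 ± 0.656 FPKM, followed by Epcam with 185 ± 4.65 FPKM and Ctnna1 with 104 ± 0.428 FPKM (SD, n = 2 each). Jup (39.3 ± 0.942 FPKM), Ctnnd1 (38.4 ± 0.268 FPKM) and Cdh1 (29.2 ± 0.193 FPKM) came next. Cdh3 (13.2 ± 0.596 FPKM) and Cdh2 (12.7 ± 0.255 FPKM) were lowest, and their libraries overlapped, so their order is not resolved. The levels of Jup and Ctnnd1 differed by 1.02-fold without overlap. After Tox4 esiRNA the order was the same from Ctnnb1 to Ctnna1, and the libraries of Ctnnd1 and Jup overlapped. Cdh2 then stood above Cdh3 and next below Cdh1, whose level was 1.09-fold higher without overlap. The ratio of the highest to the lowest level was 18.6 with Luc esiRNA and 25.3 with Tox4 esiRNA. These levels depend on the gene length used by the authors. The smallest whole length that the FPKM values allow was 3201 bases for Cdh2, 39.7% of its annotated exons, and 4405 bases for Cdh1, 96.3% of its exons. A multiple of such a length, with the reads multiplied alike, would give the same FPKM.

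Cdh1 (ENSMUSG00000000303), which encodes E-cadherin, occupies chromosome 8, 106603351 to 106670246, plus strand (GRCm38). Control levels of 29.0 and 29.3 FPKM (2487 and 1981 reads) stood against knockdown levels of 16.2 and 17.3 FPKM (1075 and 995 reads). Both Tox4 libraries thus lay far below both control libraries, which differed from each other by less than 1 FPKM. The mean fell by 42.6%, with a log2 fold change of -0.77 (SE 0.05, 95% interval -0.88 to -0.65, limma adjusted p = 0.00263). Only 68 of the 12403 tested genes had a lower log2 fold change on this scale. The change passed the test with each library left out in turn, at adjusted p from 0.00182 to 0.0304. No exon of another annotated gene overlaps its exons, so the reads of Cdh1 are not shared with a neighbour.

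Cdh3 (ENSMUSG00000061048), for P-cadherin, is the neighbour of Cdh1 on the same strand of chromosome 8, from 106510891 to 106557297. Its level was 12.8 and 13.6 FPKM in the Luc libraries and 11.1 and 10.4 FPKM in the Tox4 libraries. The groups did not overlap, and both Tox4 values were below the controls. The log2 fold change of -0.27 (SE 0.06, 95% interval -0.42 to -0.12) missed the threshold with a limma adjusted p of 0.0641. In limma-voom on the recovered reads, an alternative added after the data were seen, it was -0.29 and passed (adjusted p = 0.00600), as did 11.8% of all tested genes.

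Cdh2 (ENSMUSG00000024304), for N-cadherin, is on the minus strand of chromosome 18 from 16588877 to 16809246. It was at 12.5 and 12.9 FPKM with Luc esiRNA and at 16.0 and 14.8 FPKM with Tox4 esiRNA, on 781, 634, 771 and 620 reads. Both Tox4 libraries lay above both controls, the opposite direction to Cdh1. On the log2 scale Cdh2 was higher by 0.26 (SE 0.06, 95% interval 0.12 to 0.39), and the limma adjusted p of 0.0607 missed the threshold. Limma-voom on the recovered reads called it, at 0.28 (adjusted p = 0.00613).

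The composition of the cadherin transcripts was compared next. The summed level of Cdh1, Cdh2 and Cdh3 was 54.3 and 55.8 FPKM in the Luc libraries and 43.3 and 42.5 FPKM in the Tox4 libraries. Cdh1 made up 53.4% and 52.5% of that sum with Luc esiRNA and 37.4% and 40.6% with Tox4 esiRNA. The share of Cdh2 was 23.1% in each Luc library and 36.9% and 34.9% in the Tox4 libraries, whereas that of Cdh3 was 23.5% to 25.7% throughout. The ratio of Cdh1 to Cdh2 FPKM was 2.31 and 2.27 in the controls and 1.01 and 1.17 after knockdown, so that both genes had nearly equal FPKM in the Tox4 libraries. This difference of -1.08 on the log2 scale exceeded the SD within each group (0.0193 and 0.143). The ratio of Cdh1 to Cdh3 was 2.27 and 2.15 in the controls and 1.45 and 1.66 after knockdown, a difference of -0.51. For each of the 4 ratios computed, the 2-sided exact permutation test gave p = 0.33 (adjusted p = 0.33), the smallest value that 2 against 2 libraries allow, so none could reach the threshold. Some markers of other fates differed as well. The neuroectoderm gene Sox1 had 5.28 and 5.57 FPKM in the controls against 12.3 and 13.7 FPKM after knockdown. The mesendoderm gene T had 12.2 and 12.6 FPKM against 5.31 and 5.59 FPKM. Each was the largest change among the tested genes of its marker list. Fabp7 and Ncam1 were also called higher, though the call of Ncam1 did not hold with each library left out in turn. Nes averaged 52.1 FPKM in the controls and 49.9 FPKM after knockdown and was not called. Pax6, the other neuroectoderm marker, averaged 0.439 FPKM in the controls and 0.445 FPKM after knockdown and was too low to be tested. Neither of the mesendoderm genes Eomes and Gsc was called (limma adjusted p = 0.155 and 0.618). The part of these markers in the cadherin values was not tested.

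**Figure D2:**
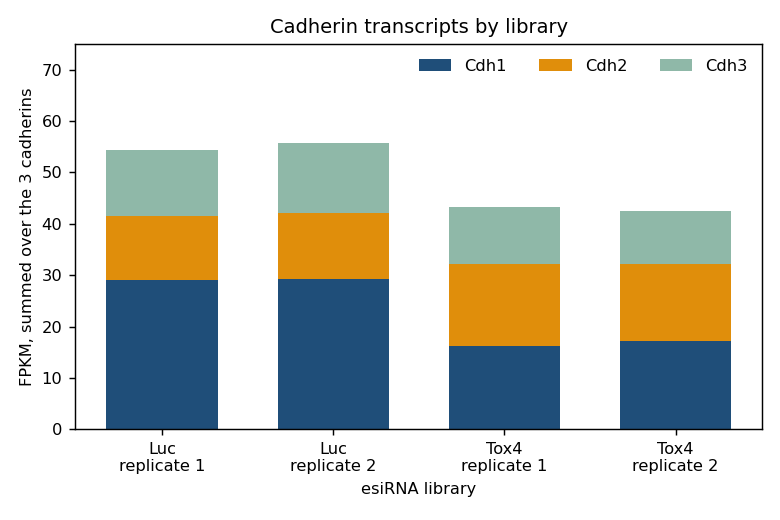
Stacked bars give the FPKM of Cdh1 (blue), Cdh2 (orange) and Cdh3 (green) in each library, on an axis that starts at 0. The total was 54.3 and 55.8 FPKM in the Luc libraries and 43.3 and 42.5 FPKM in the Tox4 libraries, and the blue part shrank while the orange part did not.

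Epcam (ENSMUSG00000045394) encodes a transmembrane glycoprotein of simple epithelia and pluripotent cells that associates with claudins. The gene occupies chromosome 17, 87635979 to 87651129, plus strand. Of the 8 genes, Ctnnb1, Ctnnd1, Jup and Epcam had an entry in the RefSeq promoter table (GRCm38.p6); Cdh1, Cdh2, Cdh3 and Ctnna1 did not. The E-box CANNTG is the recognition sequence of basic helix-loop-helix factors, and its form CACCTG that of the Snail and Zeb zinc finger repressors of epithelial genes. The 250 bases before the start of Epcam, chr17:87635729-87635978 on the plus strand, are shown because Epcam was called lower and holds E-boxes there, and those of Jup, chr11:100397791-100398040 on the minus strand, because Jup was not called and has no E-box in this window. Each is written 5′ to 3′ with matches to CANNTG, which reads the same on both strands, in capitals:
Epcam: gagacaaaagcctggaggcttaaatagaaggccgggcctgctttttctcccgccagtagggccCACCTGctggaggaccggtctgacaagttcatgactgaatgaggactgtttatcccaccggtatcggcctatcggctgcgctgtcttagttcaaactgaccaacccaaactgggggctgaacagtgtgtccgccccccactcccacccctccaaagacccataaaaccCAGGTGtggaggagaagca
Jup: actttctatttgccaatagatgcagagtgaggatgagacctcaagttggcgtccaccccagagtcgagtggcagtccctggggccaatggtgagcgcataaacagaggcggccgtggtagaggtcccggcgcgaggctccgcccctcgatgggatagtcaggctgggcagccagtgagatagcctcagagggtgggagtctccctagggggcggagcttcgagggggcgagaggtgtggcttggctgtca

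Both matches of Epcam were of the CACCTG form, at bases -187 (CACCTG) and -19 (its reverse complement, CAGGTG), counted to the first base of the match with -1 next to the start. CACCTG on either strand, each match of which is also a match to CANNTG, was present in 17.2% of the 32851 promoter windows of this length and at 2 or more places in 2.06%. CANNTG was present in 66.2%. Neither window of Ctnnb1, which was called higher, held an E-box. For Ctnnd1, which was not called, 1 of 2 windows held a single CANNTG. That window, chr2:84658978-84659227 on the minus strand, lies upstream of the annotated bounds of the gene. The other window, which reaches into its exons by 25 bases, held none. A match is a run of letters and not a measured binding site.

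Epcam had 188 and 182 FPKM in the controls (5532 and 4213 reads) and 145 and 154 FPKM after knockdown (3301 and 3043 reads). Both Tox4 values lay below both controls. The mean fell by 19.2%, a log2 fold change of -0.31 (SE 0.04, 95% interval -0.41 to -0.20, limma adjusted p = 0.0225). Without Luc replicate 1 or Luc replicate 2 the change was -0.28 and -0.33 and no longer passed (adjusted p = 0.143 and 0.0980).

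Ctnnb1 (ENSMUSG00000006932), for beta-catenin, occupies chromosome 9, 120929216 to 120960507, plus strand. It was at 238 and 237 FPKM in the Luc libraries and at 272 and 273 FPKM in the Tox4 libraries, on 21411, 16830, 18967 and 16528 reads. The values of each group lay within 2 FPKM of each other, and both Tox4 libraries were above both controls. The rise was 14.8%, or 0.20 on the log2 scale (SE 0.03, 95% interval 0.12 to 0.27, limma adjusted p = 0.0301). It missed the threshold with any 1 library left out, at 0.19 to 0.20 and adjusted p from 0.0550 to 0.195. A stretch of 759 bases of its exons overlaps exons of Ulk4 on the opposite strand. Ulk4 had 133 to 169 reads per library, against 16528 or more for Ctnnb1.

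The remaining catenins did not pass. Jup (ENSMUSG00000001552, chromosome 11, 100368958 to 100397763, minus strand) encodes plakoglobin, the catenin shared by adherens junctions and desmosomes. It was at 38.6 and 40.0 FPKM with Luc esiRNA and at 37.2 and 38.8 FPKM with Tox4 esiRNA, and these values overlapped. On the log2 scale Jup differed by -0.046 (SE 0.04, 95% interval -0.15 to 0.06, limma adjusted p = 0.581). Ctnnd1 (ENSMUSG00000034101, chromosome 2, 84600071 to 84650765, minus strand) encodes p120-catenin, which holds cadherins at the membrane. It was at 38.2 and 38.6 FPKM with Luc esiRNA and at 39.2 and 37.7 FPKM with Tox4 esiRNA. The Tox4 libraries lay on either side of the controls, and the difference on the log2 scale was 0.0023 (SE 0.04, 95% interval -0.09 to 0.10, limma adjusted p = 0.981). Ctnnd1 has 30 annotated transcripts, and a value per gene does not separate its splice forms. The readthrough gene model Gm28635, not in the table, shares 4482 bases of exon with it on the same strand.

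Ctnna1 (ENSMUSG00000037815, chromosome 18, 35118859 to 35254779, plus strand) encodes alpha-E-catenin. It was at 103 and 104 FPKM in the Luc libraries and at 97.7 and 97.2 FPKM in the Tox4 libraries. The groups did not overlap, but the change was small, with a log2 fold change of -0.09 (SE 0.03, 95% interval -0.16 to -0.01, limma adjusted p = 0.190). The summed level of the 4 catenins was 418 and 419 FPKM with Luc esiRNA and 446 and 447 FPKM with Tox4 esiRNA, while the cadherin sum was lower. The higher catenin sum came from Ctnnb1 (mean 237 to 272 FPKM). Ctnna1 (104 to 97.5 FPKM) and Jup (39.3 to 38.0 FPKM) had lower means, and Ctnnd1 averaged 38.4 FPKM in each group. Catenin FPKM stood at 7.69 and 7.51 times cadherin FPKM in the controls and at 10.3 and 10.5 times after knockdown. The ratio of Jup to Ctnnb1, the 2 armadillo proteins that bind the same cadherin site, was 0.163 and 0.169 in the controls and 0.137 and 0.142 after knockdown.

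**Figure D3:**
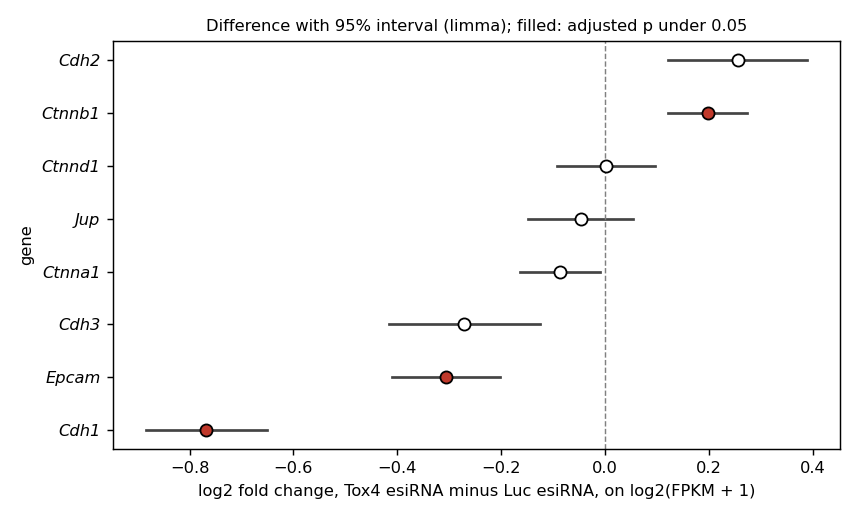
Log2 fold change of Tox4 against Luc esiRNA on log2(FPKM + 1) (horizontal axis) for each gene, with the 95% interval of limma as a line and filled points for adjusted p under 0.05. Cdh1 stands at -0.77, Epcam at -0.31 and Ctnnb1 at 0.20, and the intervals of Ctnnd1 and Jup include 0.

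Genes around the junction were read from 9 lists, of which 75 of 95 genes were tested, with 2 higher and 9 lower (14.7% called, against 4.51% of all tested genes). All of these genes were described by count, since the lists were drawn up with earlier results known. Among 5 tested cadherins outside the 3 above, Cdh22 rose (3.11 to 4.86 FPKM, log2 fold change 0.51, limma adjusted p = 0.0294), Cdh24 fell (6.96 to 5.10 FPKM, -0.38, adjusted p = 0.0408) and 3 did not pass. The list's median log2 fold change was 0.25. Both are type II cadherins, and both had lower FPKM than Cdh1 in every library.

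Of 6 tested catenin relatives, Pkp2, a plakophilin of desmosomes, fell from 32.4 to 25.7 FPKM (log2 fold change -0.32, limma adjusted p = 0.0141) and 5 did not pass (median 0.12). Of 4 tested desmosomal partners of plakoglobin, the cadherin gene Dsg2 fell from 3.83 to 2.45 FPKM (-0.49, adjusted p = 0.0358) and 3 did not pass (median -0.31). Of 5 tested nectin and afadin genes, Pvrl2, for nectin-2, an immunoglobulin-type adhesion protein that acts beside cadherins, fell from 37.2 to 30.2 FPKM (-0.29, adjusted p = 0.0338) and 4 did not pass (median 0.05). Of 15 actin linkers, Ajuba, for a LIM protein that binds alpha-catenin, fell from 58.3 to 46.6 FPKM (-0.32, adjusted p = 0.0265) and 14 did not pass (median -0.06).

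The list of Epcam partners and proteases held 3 of the falls. Of 8 tested genes, Cldn7 and Cldn6, claudins of the tight junction, fell from 15.0 to 8.85 FPKM (log2 fold change -0.70, limma adjusted p = 0.00754) and from 29.2 to 18.9 FPKM (-0.60, adjusted p = 0.00288). Spint2, an inhibitor of membrane serine proteases, fell from 75.6 to 61.9 FPKM (-0.29, adjusted p = 0.0241). The other 5 did not pass, and the median was -0.15. Cldn7, whose protein binds Epcam directly, was at 15.7 and 14.3 FPKM in the Luc libraries and at 8.61 and 9.10 FPKM in the Tox4 libraries. The groups did not overlap, and the mean fell by 41.0%.

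The list named for repressors and activators of Cdh1 had 8 tested genes. Esrp1, listed here though its product is an RNA-binding protein that directs epithelial splice forms, fell from 5.33 to 2.79 FPKM (log2 fold change -0.74, limma adjusted p = 0.0146). Its values were 5.28 and 5.38 FPKM with Luc esiRNA and 3.01 and 2.58 FPKM with Tox4 esiRNA, without overlap. Tcf3, which encodes the E2A proteins that bind E-boxes, rose from 70.6 to 81.4 FPKM (0.20, adjusted p = 0.0400). The other 6 did not pass, and the median was -0.16. Snai1, a repressor of Cdh1, was at 3.03 and 3.79 FPKM in the Luc libraries and at 2.27 and 2.22 FPKM in the Tox4 libraries and did not pass (-0.44, adjusted p = 0.0901). Zeb1, another repressor, was at 5.19 and 5.68 FPKM with Luc esiRNA and at 6.83 and 6.39 FPKM with Tox4 esiRNA (0.24, adjusted p = 0.127). Of the rest, Grhl2 was at -0.32, Ovol2 at -0.43, Snai2 at -0.0087 and Zeb2 at 0.07 (limma adjusted p = 0.166, 0.208, 0.978 and 0.820). Limma-voom called Zeb1 and Grhl2 of these 6 genes (adjusted p = 0.00906 and 0.0214), against 11.8% of all tested genes. The 6 genes that did not pass were named after their values were seen.

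By limma on all 4 libraries no gene was called among the turnover genes of cadherin or the Wnt partners of beta-catenin. Of 11 genes of cadherin cleavage, uptake and phosphorylation none passed (median 0.05), 2 had an unadjusted p under 0.05, as did 21.6% of all tested genes, and none passed in limma-voom. The largest log2 fold change was that of the protease gene Adam10 (0.14, limma adjusted p = 0.120). Of 13 genes of the beta-catenin destruction complex and TCF partners none passed (median 0.05), 3 had an unadjusted p under 0.05 (21.6% over all tested genes), and limma-voom called 1 (11.8% over all), Tcf7l1, a repressor of Wnt targets in pluripotent cells. Tcf7l1 averaged 54.2 FPKM in the controls and 64.1 FPKM after knockdown (0.24, limma adjusted p = 0.0546; 0.28 and 0.0474 without Tox4 replicate 1), and Tcf7l2, another TCF factor, differed by 0.19 (adjusted p = 0.182). The destruction complex genes Apc, Axin1, Gsk3a and Gsk3b had log2 fold changes between -0.02 and 0.08. Axin2, the feedback target of Wnt signalling, was at 0.0039 (adjusted p = 0.981). These last 5 genes were named after their values were seen.

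Of the 11 calls in these lists, Cldn6 alone passed with each library left out in turn (adjusted p up to 0.0331). Cldn7 missed only without Luc replicate 1 (adjusted p = 0.0523), and the other 9 missed without either Luc library (adjusted p up to 0.234), 5 of them also without a Tox4 library. With no filter on low values, Cdh24, Pvrl2 and Tcf3 missed the threshold (adjusted p = 0.0550, 0.0542 and 0.0593).

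**Figure D4:**
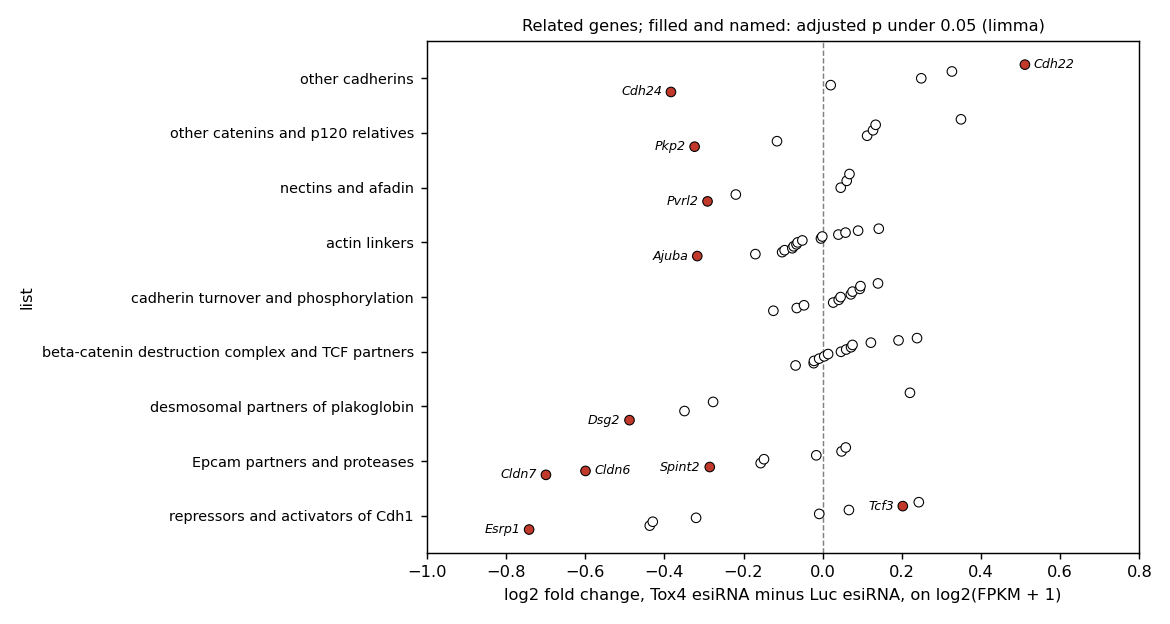
Log2 fold change on log2(FPKM + 1) (horizontal axis) of the tested genes of each list of related genes (rows), 1 point per gene; filled, named points had a limma adjusted p under 0.05. Of the 11 filled points 9 lie to the left of 0, from Esrp1 at -0.74 to Spint2 at -0.29, and Cdh22 and Tcf3 lie to the right.

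The genes on each side of Cdh1 along chromosome 8 showed no called change. The 5 nearest tested genes on each side were compared, by the position of their starts. Cdh3, 92.5 kb upstream, was at -0.27 and Gm10073, at 29.9 kb upstream, at -0.37 on the log2 scale (limma adjusted p = 0.0641 and 0.0615). Of the 10 genes, 4 had an unadjusted p under 0.05, against 21.6% of all tested genes, and limma-voom called Cdh3 and Sntb2, against 11.8%. Tango6, 79.7 kb downstream, was at -0.18 (adjusted p = 0.157). The 7 others lay between -0.07 and 0.24, with Sntb2 at 0.24 (adjusted p = 0.0864). The 3 tested genes nearest to Cdh1 were lower in both Tox4 libraries, but by less than Cdh1 and without passing, and Gm10073 had only 96 to 178 reads per library. Sntb2 was higher in both Tox4 libraries. Values of the 2 groups did not overlap for 52.0% of all tested genes, so such a separation is common here. The 10 genes were chosen after the change of Cdh1 was seen.

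**Figure D5:**
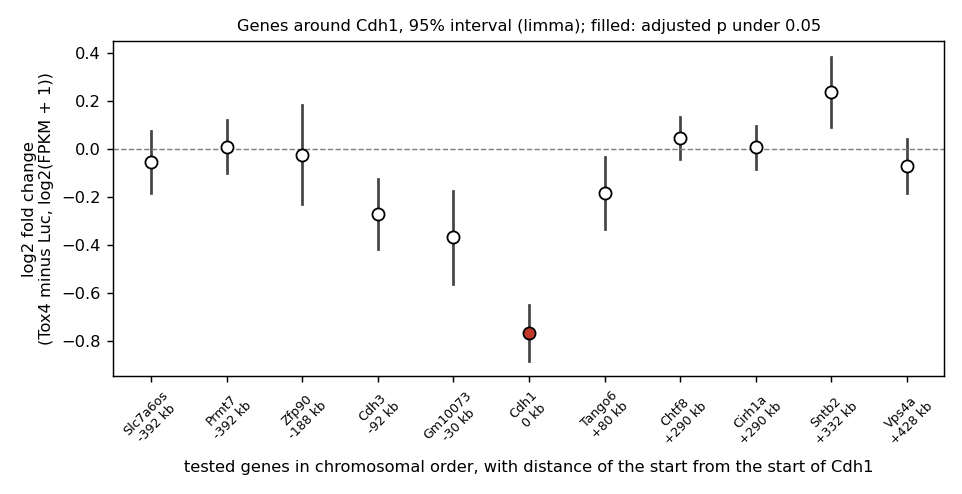
Log2 fold change on log2(FPKM + 1) (vertical axis) of the 5 tested genes on each side of Cdh1, in chromosomal order with the distance of each start from that of Cdh1; lines are 95% intervals of limma. Cdh1, the filled point, is at -0.77, and the other 10 genes, with open points, lie between -0.37 and 0.24.

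The genes whose values over the 4 libraries were most like those of a called gene were found by Euclidean distance in log2(FPKM + 1) after removal of each gene's mean, among 8620 genes with at least 5 FPKM. For Cdh1 they were Krt19 (distance 0.0367), Adm (0.0479) and Psmb8 (0.0930). Krt19, a keratin of simple epithelia, was at 77.8 and 80.0 FPKM in the Luc libraries and at 45.7 and 47.7 FPKM in the Tox4 libraries, a log2 fold change of -0.74. For Epcam the nearest were Tmem179b (0.0135), Cryzl1 (0.0174) and Pvrl2 (0.0197), and for Ctnnb1 they were Ezr (0.00664), Acvr1 (0.0132) and Ski (0.0142). Ezr, for the membrane-actin linker ezrin, had 85.0 FPKM in each control library and 97.6 FPKM in each Tox4 library. Likeness over 4 libraries in 2 groups is a description of these values.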

How the data were processed

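Polyadenylated RNA of 4 libraries was sequenced. The authors deposited FPKM values per gene for each library and as 1 table, and both hold the same numbers. CASAVA 1.8, STAR 2.3.0e and the build GRCm38.p1 are named, per the submitters' processing notes. The counter, its annotation and its strand setting: not given in the sources used here. Gene positions came from GENCODE M21 (GRCm38).

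Groups came from the titles. The 12403 genes averaging 1 FPKM or more were fitted on log2(FPKM + 1), which understates changes of low genes, with limma 3.58.1 (R 4.3.3), an intensity trend, no covariate, 2 residual degrees of freedom and two-sided tests. Reads were worked back from the ratios of the values within each gene, up to a common factor per gene. Fractions were sought to a relative tolerance of 5e-13 and judged at the same tolerance, so the match of 100% of values is no test. Limma-voom on these reads, added after the data were seen, called 738 genes higher and 723 lower. The fit and the read recovery were also run on simulated data, whose outcome is not reported here. The simulated reads were drawn from the recovered reads, so these runs are no test of the recovered reads themselves. Replicates differed by more than sampling noise (chi-square per degree of freedom 1.59 and 1.89). Named genes were the 8 genes, Tox4, up to 4 called genes per list (or the 2 largest changes where none was called, 1 of which is not reported here) and the 3 nearest genes to each called gene. The 8 genes and the lists were chosen with earlier results of these data known. Alternatives were 2 other pseudocounts, no filter, no trend, rescaled libraries, the replicate number as a block and each library left out.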

Additional observations from a re-analysis of the deposited data

How the results depend on the processing

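Cdh1 kept its direction and its call under all 11 alternatives, from -0.81 to -0.72 on the log2 scale. Pseudocounts of 0.1 and 0.5 and rescaled libraries, whose shifts were under 0.003, changed no call among the 8 genes. With no intensity trend Epcam (-0.31, adjusted p = 0.0892) and Ctnnb1 (0.20, adjusted p = 0.113) lost their calls, which left 0 of the 8 genes higher and 1 lower, 0 and 4 in the lists and 33 and 45 over all genes. With no filter 1 list gene was higher and 7 were lower, and 146 and 202 of all genes were called. Limma-voom on the recovered reads added Cdh2 (0.28) and Cdh3 (-0.29), which made 2 of the 8 genes higher, 9 and 14 in the lists, and 738 and 723 over all genes. Fitting the replicate number as a block left 0 of the 8 genes higher, since Ctnnb1 (0.20) had an adjusted p of 0.0634, and called Tcf7l1 (adjusted p = 0.0337); the numbers are not said to pair the libraries, and the deviations of same-numbered libraries had a correlation of -0.04.

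With 1 library left out, a group holds a lone library that is assumed to vary like the other group. The ranges over the 4 such fits were -0.35 to -0.26 for Epcam, 0.19 to 0.20 for Ctnnb1, -0.026 to 0.030 for Ctnnd1, which turned negative without Luc replicate 1 (-0.0047) and without Tox4 replicate 1 (-0.026), 0 and 1 to 2 of the 8 genes higher and lower, 0 to 3 and 1 to 7 in the lists, and 27 to 176 and 34 to 296 over all genes. The 4 ratios between the genes kept their directions. The cause of these shifts was not tested. The planned edgeR and DESeq2 fits were not run, since the deposited unit is FPKM.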

Other observations

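Other cadherins of the table, read by symbol after their values were seen, were few and low. Beside the 3 classical cadherins, 11 genes named Cdh were in the table, 6 of them tested, with a highest level of about 10 FPKM for Cdh10 (9.58, 9.54, 9.22 and 10.2 FPKM). Cdh6, for a type II cadherin of neural crest and kidney, had a mean under 1 FPKM and was not tested. Its reads numbered 8 and 5 with Luc esiRNA, against 23 and 23 with Tox4 esiRNA, and with no filter on low values it did not pass (limma adjusted p = 0.0864). Cdh12, also not tested, went the other way, with 4 and 3 reads against 0 and 0 (limma adjusted p = 0.0981 with no filter). Mean FPKM was also lower after knockdown for Cdh9 (1.57 to 1.44, limma adjusted p = 0.794) and for the untested Cdh23 (0.520 to 0.388). Cdh4, for R-cadherin, was at 3.05 and 3.22 FPKM in the Luc libraries and at 4.08 and 3.74 FPKM in the Tox4 libraries (limma adjusted p = 0.163), and Cdh13, for a cadherin anchored by a lipid, at 1.58, 1.56, 2.26 and 2.19 FPKM (adjusted p = 0.133). Of 14 tested protocadherins, relatives without a catenin-binding tail, none passed, 3 had an unadjusted p under 0.05 (21.6% of all tested genes) and limma-voom called 3, Pcdh7, Pcdh18 and Pcdhgc4 (11.8% of all tested genes), with a median log2 fold change of 0.14 and a range from -0.25 for Pcdh7 to 0.35 for Pcdh18. Those of the clustered type are close paralogs, between which the authors' counting could have split reads.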
